A study of Homo sapiens with 1 sample.

Results

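LINC RNAs are long intergenic non-coding RNAs that carry a systematic name in place of a functional one. The well-expressed members were the genes named LINC and a number that held 3000 or more unique molecular identifiers (UMIs, counted RNA molecules) summed over the kept cells of 1 single-cell library. This rule took 49 of the 1793 LINC genes listed, among 33538 genes in all, and 1473 LINC genes had at least 1 UMI. The members were chosen by these totals, so their abundance is a description and not a result. The last genes inside the floor were LINC00624 with 3253 UMIs, LINC01248 with 3243 and LINC00672 with 3089. The first outside it were LINC00491 with 2982, LINC01091 with 2922 and LINC00310 with 2912.

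The cells were H9, an established human embryonic stem cell line, of genotype WT with the human enhancer HAR123 (hHAR123), differentiated to neural progenitor cells (NPCs). Clones had been pooled and the cells were taken before rosettes were picked. There was 1 library of 1 line with no replicate, so no test could be run, and the other genotypes of the study were not analysed here. Intervals are 95% and cover counting error only. The kept cells numbered 13925 of 14726 barcodes, with 3167 to 118188 UMIs each.

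Long non-coding RNAs are transcribed like messenger RNAs but are not known to be translated, and many stay in the nucleus. They are often found in fewer cell types than coding transcripts, and several lie beside genes for transcription factors of the developing brain. For most LINC genes no function is established. A level below is what a gene took of all UMIs in a state, in counts per 1000000 (CPM). A ratio is that of 2 such levels, and 2-fold or more in either direction was read as a difference.

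The cells were read in 5 states. The contractile state was set by ANXA1, TFPI2 and CTGF, genes of the membrane, matrix and growth factor response, at 5 or more UMIs per 10000 together. It held 1584 cells (11.4% of those kept). The newborn neuron-like state was set by STMN2, ELAVL3, ELAVL4, INA, MYT1L and NHLH1, of which at least 3 had to be found, and held 101 cells (0.725%). The other 12240 cells were progenitors, split by scores for replication and mitosis genes into 3054 in G1, 5174 in S and 4012 in G2/M. These states are ranges of a score and not cell types. For the contractile gate, 89 cells lay from 4 to below 5 and 72 from 5 to below 6 UMIs per 10000. For the neuron gate these numbers were 4 and 3. The S and G2/M scores of 666 progenitors differed by less than 0.05.

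Genes that did not set the states were read beside them. The smooth muscle and actin-binding genes TAGLN, ACTA2, MYL9, CNN1, TPM1, TPM2 and CALD1 and the secreted matrix-associated CYR61 and THBS1 were all higher in the contractile state, with a median over cells of 157 UMIs per 10000 together against 10.4 in progenitors. In those cells the neural progenitor factor SOX2 stood at 117 CPM, against 364 to 458 CPM in the 3 phases. The intermediate filament genes VIM and NES, on the same neural progenitor list, were higher there, at 4302 against 823 to 1112 CPM and at 666 against 225 to 252 CPM. The transcription factors SOX1 (7.70 against 56.3 to 63.0 CPM), PAX6 (20.5 against 49.8 to 60.5) and HES1 (88.8 against 93.4 to 139) were lower. SOX3 was within the range of the phases (20.7 against 16.7 to 22.7 CPM). The median of the whole list, most of whose UMIs were of VIM there, was 47.7 UMIs per 10000 against 16.7 in progenitors. That of 5 forebrain factors was 3.12 against 8.94 UMIs per 10000. The 6 mesenchymal or crest markers together were at 79.0 CPM against 11.1 CPM in progenitors, most of it COL1A2 (68.7 CPM). The 5 p53 target genes together were at 265 CPM against 117, with CDKN1A, a cell cycle inhibitor, at 48.2 against 5.09 to 11.4 CPM and GDF15, a stress-induced secreted factor, at 23.97 against 1.22 to 4.72 CPM. Their part in the results below was not tested. The neuronal genes DCX, TUBB3, STMN4, GAP43, NSG2, RBFOX3 and SNAP25 had a median of 13.9 UMIs per 10000 in the neuron-like cells against 0.782. Of these, GAP43 was also high in contractile cells, at 145 CPM against 14.8 to 19.7 CPM in the phases. Genes of Cajal-Retzius neurons, such as RELN and EBF2, had 12.3 against 0.610. The cyclin CCNB1, absent from the scoring lists, was at 25.7, 63.5 and 332 CPM in G1, S and G2/M. The pluripotency genes POU5F1 and NANOG were below 1 CPM in every state. The states differed in depth, with a median of 47217 UMIs per contractile cell, 13089 per neuron-like cell, and 13491, 16725.5 and 21790.5 per G1, S and G2/M cell.

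The 49 members held 0.271% of all UMIs in progenitors, 0.130% in the contractile state and 0.232% in the neuron-like state. The median kept cell had a UMI of 19 members, or 8 once each cell was thinned to 5000 UMIs. Totals ran from 3089 to 114888 UMIs, and the 5 largest members took 43.3% of them. Of the members, 13 were found in 50% or more of kept cells. In thinned cells, 21 were found in under 10%.

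The most abundant member was LINC01551 (ENSG00000186960, chr14:28765640-28823817 on GRCh38, plus strand, 11 exonic blocks). The level of LINC01551 was 626 CPM in G1, 376 in S and 383 in G2/M progenitors. It was 182 CPM in contractile cells and 123 CPM (106 to 141) in neuron-like cells. It was thus highest in G1 and lowest in the neuron-like cells, 5.10-fold apart. In UMIs per cell the contractile difference turned the other way, with 8.80 per contractile cell against 8.23 per progenitor.

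LINC01515 (ENSG00000228065, chr10:65570338-65880289) was at 182, 201 and 237 CPM in G1, S and G2/M. It fell to 81.3 CPM in contractile and 97.1 CPM in neuron-like cells, though per cell the contractile ratio was 0.963 (3.94 against 4.09 UMIs). LINC01876 (ENSG00000226383, chr2:156011530-156254950), known from human forebrain progenitors as a transcript that starts in a LINE-1 element, was at 272, 187 and 173 CPM. It was at 54.3 CPM in contractile cells and, unlike the last gene, kept 227 CPM in neuron-like cells. LINC01833 (ENSG00000259439, chr2:44921077-44939199) starts beside SIX3, a factor of the anterior forebrain and eye field. It was at 219, 165 and 166 CPM in the phases, 86.6 CPM in contractile cells and 43.4 CPM in neuron-like cells, though per cell it too was higher in contractile cells (a ratio of 1.24). LINC01572, the remaining member of the 5, is described with the cell cycle.

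**Figure D1:**
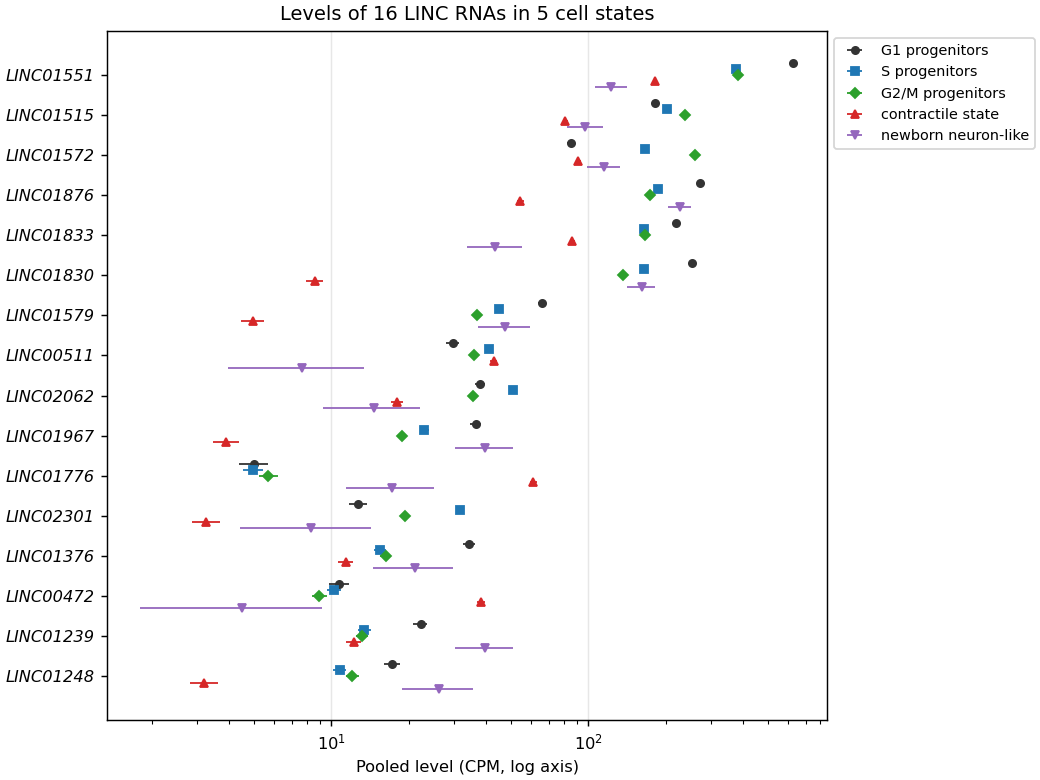
Pooled level in CPM (log axis) of 16 named LINC RNAs in the 5 cell states of the 1 library, with bars for the exact 95% Poisson interval (counting error only). The contractile points of LINC01776 and LINC00472 lie to the right of their other states, and those of LINC01830, LINC01579 and LINC01967 lie far to the left.

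In the contractile state most members took a lower share of the UMIs, and only 2 were 2-fold or more higher. The 2 were LINC01776 and LINC00472, 4.08% of the members, where 6.05% of the 10121 genes with 3000 or more UMIs rose as far. Both had passed the floor of 3000 only through the contractile cells, with 1271 and 2324 UMIs outside them, so that their rise decided their membership and is a description. By the UMIs outside the contractile state, a floor added after the data were seen, 42 members remained, of which 0 were 2-fold higher (4.48% of the 9327 genes that passed) and 26 lower (61.9%, against 12.9%). The members at least 2-fold lower numbered 28 of 49 (57.1%), against 12.6% of the 10121 genes. The floor counted the UMIs of all kept cells, of which progenitors held 75.1%. Members low in contractile cells could thus pass it through the progenitors. All 10121 genes met the same floor, but their levels were not matched to those of the members. The member median ratio was 0.469 (log2 -1.09), and that of all genes 0.867 (log2 -0.21). The lower levels were not particular to the LINC name: 192 of 409 other lncRNA genes (46.9%) were also 2-fold or more lower, with a median of 0.525. Protein-coding genes had a median of 0.880. Relative to the median of all genes, a scaling added after the data were seen, 20 members were lower (40.8%, against 8.84% of all genes) and 2 were higher (4.08%, against 7.90%). In UMIs per cell, where nothing is divided by depth, 8 members were higher (16.3%, against 58.3% of all genes) and 6 lower (12.2%, against 1.81%), and the median ratio was 1.18 where all genes had 2.17. The members came to 63.1 UMIs per contractile cell and 52.4 per progenitor. They thus took a smaller share of the counted RNA, while 15 of the 49 had fewer UMIs per cell, and 13 of the 28 lower members had more. More RNA in a cell and deeper capture of its RNA cannot be told apart.

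LINC01776 (ENSG00000226053, chr1:98210747-98272658, plus strand, 3 exonic blocks) had the highest ratio, on UMIs that had brought it over the floor. It stood at 4.99, 4.97 and 5.69 CPM in G1, S and G2/M and at 61.1 CPM (59.3 to 62.8) among contractile cells. The ratio was 11.6 (10.9 to 12.4), or 29.1 in UMIs per cell. A UMI was found in 68.1% of contractile cells and 5.33% of progenitors, or 18 to 22% (95% Clopper-Pearson interval) and 1.61% after thinning to 5000 UMIs. Within the contractile cells its level was alike in the phases, at 60.9, 60.9 and 61.2 CPM in G1, S and G2/M. Along the gate it climbed at every step. It was at 1.74 CPM in cells with none of the 3 gate genes, 6.91 above 0 to below 2 UMIs per 10000, and 28.5 from 2 to below 5. It was then at 34.3, 48.9 and 76.2 CPM in the bins from 5, from 10 and from 20. Cells just below the gate thus already carried more LINC01776 than the rest of the progenitors. Its nearest coding gene, DPYD (pyrimidine breakdown), lies 216 kb away on the other strand and had a ratio of 2.26. In the neuron-like state the ratio of DPYD was 4.69 (4.07 to 5.36).

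LINC00472 (ENSG00000233237, chr6:71187161-71420745, minus strand, 36 exonic blocks) was at 10.7, 10.2 and 8.96 CPM in the phases. The contractile level was 38.2 CPM (36.8 to 39.6), which is 3.90 times (3.69 to 4.12) that of progenitors, or 9.77 times in UMIs per cell. It was at 4.47 CPM (1.80 to 9.21, 7 UMIs) in neuron-like cells. Along the gate it was at 6.94, 11.3, 27.7, 38.2, 36.0 and 39.5 CPM, so that it levelled off from the gate value on where LINC01776 kept climbing. OGFRL1, a coding gene whose span overlaps it on the other strand, had a similar ratio of 3.36.

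The span of LINC00472 holds the hairpins of 2 microRNAs of the miR-30 family on its own strand, which is why their mature forms are shown. The seed, bases 2 to 8, is in capitals (RefSeq, GRCh38.p14, 5′ to 3′). Both 5p forms share the seed GUAAACA. Mature microRNAs carry no poly(A) tail and were not measured by this library.
hsa-miR-30a-5p: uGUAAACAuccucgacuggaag
hsa-miR-30c-5p: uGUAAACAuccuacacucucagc
hsa-miR-30a-3p: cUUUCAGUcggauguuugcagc
hsa-miR-30c-2-3p: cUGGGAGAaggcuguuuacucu

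The promoter of LINC00472 is shown because it is the only member 2-fold higher in the contractile state among the 32 members that matched the RefSeq promoter table (250 bases before to 50 after a start). It lies at chr6:71420696-71420995 on the minus strand. Capitals mark CCAAT or its reverse ATTGG, the core bound by NF-Y. The window holds 5 matches, 2 of which overlap, and 5 or more occur in 0.356% of 34796 distinct human windows. The window of LINC00685, 1845 bases from its GENCODE start, holds 6 matches, and its contractile ratio was 0.699. At least 1 match is in 16 of the 32 member windows and in 34.6% of all windows. A part of the motif in the levels was not tested. CATTCC or its reverse GGAATG, the core bound by TEAD factors, is not in the LINC00472 window and is in 14.0% of all windows.
LINC00472: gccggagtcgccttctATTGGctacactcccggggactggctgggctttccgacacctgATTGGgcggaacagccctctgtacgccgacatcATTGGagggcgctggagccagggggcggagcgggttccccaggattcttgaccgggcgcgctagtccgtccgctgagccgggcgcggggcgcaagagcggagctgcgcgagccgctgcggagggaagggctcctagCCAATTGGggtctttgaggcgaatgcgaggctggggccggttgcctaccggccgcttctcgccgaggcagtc

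The member that fell furthest was LINC01830. It was at 253, 165 and 136 CPM in G1, S and G2/M but at 8.60 CPM (7.96 to 9.28) where the contractile gate was passed. That is a ratio of 0.051 (0.047 to 0.055), or 0.028 without the 8% of cells with the highest Scrublet doublet scores. A UMI was found in 56.6% of progenitors and 12.8% of contractile cells, or 38.3% and 2.53% after thinning. Along the gate it dropped from 194 to 154, 42.4, 18.0, 11.2 and 4.24 CPM. Per cell it was at 0.417 UMIs in contractile cells against 3.29 in progenitors, which is the same ratio rescaled by depth. The file pairs this symbol with ENSG00000231200, which GENCODE version 44 does not list, so no position is given. That version gives the name LINC01830 to another ID, listed here as AC096570.1, whose own ratio was 0.044 (0.035 to 0.054).

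LINC01579 (ENSG00000258754, chr15:93718542-94070898) was at 45.5 CPM in progenitors and 4.94 CPM where the gate was passed, with a ratio of 0.109 (0.098 to 0.120). AC110023.1, which overlaps it on the other strand with 91896 UMIs, had a ratio of 0.144. LINC02301 (ENSG00000258743, chr14:82642600-82746664) was at 23.1 against 3.26 CPM, a ratio of 0.141 (0.124 to 0.160). LINC01967 (ENSG00000235493, chr3:27916774-28059268) was at 23.9 against 3.90 CPM, a ratio of 0.163 (0.145 to 0.183). LINC01980, which overlaps LINC01967 on the other strand, had a ratio of 0.322. Of the other members, 4 more had a ratio below 0.25, so that 8 did in all, and 24 had an interval wholly at or below 0.5. That is 16.3% and 48.98% of the members, against 2.65% and 10.6% of all genes and 10.8% and 41.3% of the other lncRNA genes. In UMIs per cell every CPM ratio of this comparison is multiplied by the same 2.51, the difference in depth of the states. LINC01830, LINC01579, LINC02301 and LINC01967 then had ratios of 0.127, 0.272, 0.353 and 0.410, which are no separate check.

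**Figure D2:**
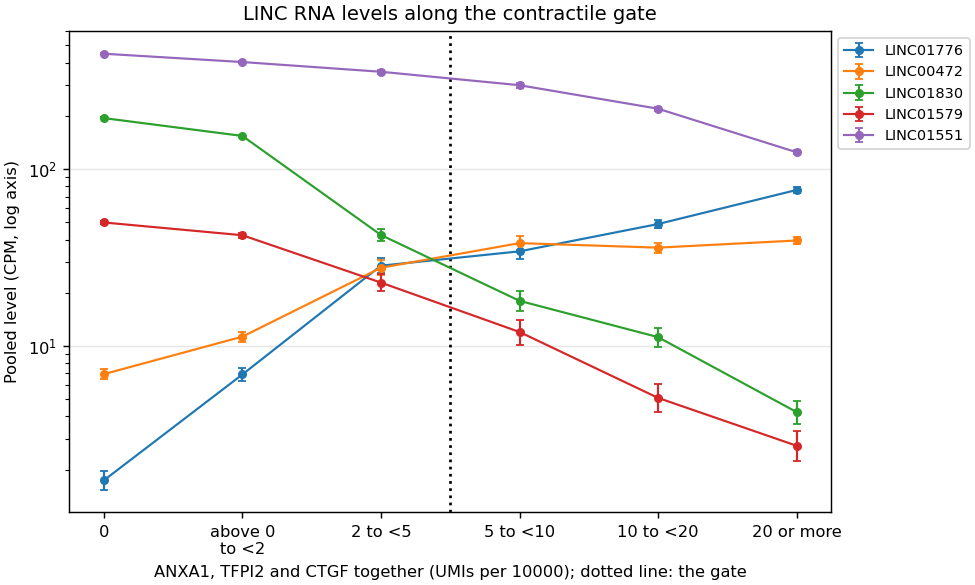
Pooled level in CPM (log axis) of 5 LINC RNAs in cells binned by the UMIs per 10000 of ANXA1, TFPI2 and CTGF, newborn neuron-like cells left out, with 95% Poisson bars. From the lowest to the highest bin LINC01776 rose from 1.74 to 76.2 CPM and LINC01830 fell from 194 to 4.24 CPM.

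In the newborn neuron-like state the members went both ways. The 3 that were 2-fold or more higher (6.12% of the members, against 5.56% of all genes) were LINC01776, LINC01239 and LINC01248. The 8 that were 2-fold or more lower (16.3%, against 13.7%) were LINC00511, LINC01833, LINC01551, LINC02062, LINC02301, LINC00472, LINC01515 and LINC01224. Both shares were near those of all genes, but the share of higher members was not so in every setting. Thinned to 5000 UMIs it was 12.2% against 6.16%, and without the 8% highest Scrublet scores 14.3% against 6.23%. The member median was 1.05, and that of all genes 0.902 (log2 -0.15). Of the neuron-like cells, 87.1% were called G1, the phase in which most members were highest. Against G1 progenitors alone the member median was 0.840 and that of all genes was 0.947. Only LINC01776 remained 2-fold higher (2.04% of the members, against 5.98% of all genes), and 6 members were 2-fold lower (12.2%, against 8.62%). With 101 cells, 13 members rested on fewer than 30 UMIs, and the interval of 16 ratios spanned 1.

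LINC01776 was at 17.2 CPM (11.4 to 25.1, 27 UMIs) in neuron-like cells against 5.26 CPM in progenitors, a ratio of 3.28 (2.15 to 4.79). This is well below its 61.1 CPM in contractile cells. LINC01239 (ENSG00000234840, chr9:22646200-22824213) was at 39.6 against 15.0 CPM, a ratio of 2.64 (2.02 to 3.39). Against G1 progenitors, where it stood at 22.2 CPM, this was 1.78. Its nearest coding gene DMRTA1, a transcription factor of the DMRT family, lies 190 kb away on the same strand and had a ratio of 3.18. LINC01248 (ENSG00000224128, chr2:5602505-5691488) was at 26.2 against 12.5 CPM, a ratio of 2.09 (1.5 to 2.85), or 1.52 against G1. It starts 0.895 kb from SOX11, a factor of immature neurons that stands on the opposite strand and had a ratio of 1.49. In the contractile state LINC01248 had a ratio of 0.255 and SOX11 one of 0.378.

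LINC00511 (ENSG00000227036, chr17:72290091-72640472) fell most, at 7.67 CPM (3.96 to 13.4, 12 UMIs) against 36.8 CPM, a ratio of 0.209 (0.108 to 0.364). Its contractile ratio was 1.16, so the 2 states went apart for this gene. After thinning, the neuron-like ratio of LINC00511 was 0.456. LINC01833 had a ratio of 0.247 (0.192 to 0.313) and SIX3 beside it 0.345. LINC01551 had 0.288 (0.248 to 0.331). Both LINC genes were lower in the bins from the neuron gate's value on, and not in the 30 cells of the bin just below it. LINC01551 was at 426 CPM in the 12210 cells with under 2 UMIs per 10000 or fewer than 3 markers. It was at 506 from 2 to below 5, 209 from 5 to below 20 (24 cells) and 81.9 at 20 or more (77 cells). LINC01833 was at 176, 179, 81.5 and 25.4 CPM in the same bins. LINC02062 (ENSG00000248489, chr5:98929163-98995013), which starts 0.155 kb from the chromatin remodeller gene CHD1 on the other strand, was at 14.7 against 42.2 CPM, a ratio of 0.348 (0.221 to 0.523). Thinned, its ratio was 0.191. With the neuron gate at 2, LINC02062 had 0.502 and LINC01551 had 0.525, both short of 2-fold.

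Among all members, 6 were 2-fold or more lower in both states, while 15 were 2-fold lower in the contractile state and above 1 in the neuron-like state. These are 12.2% and 30.6% of the members, against 2.36% and 6.01% of all genes and 7.58% and 20.8% of the 409 other lncRNA genes. Only LINC00472 and LINC01248 were 2-fold higher in one of these states and 2-fold lower in the other, LINC00472 higher in the contractile state and LINC01248 in the neuron-like state. The share of all genes that did so was not counted. LINC00472 had passed the floor only through the contractile cells, and its neuron-like level rested on few UMIs. Only 3 members had a neuron-like interval wholly at or below 0.5, and LINC00472 was not among them. The neuron-like call of LINC01248 did not hold in 5 other settings, with ratios of 1.89 with every cell weighing the same, 1.68 in UMIs per cell, 1.92 and 1.996 with the neuron gate at 2 and at 10, and 1.52 against G1.

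**Figure D3:**
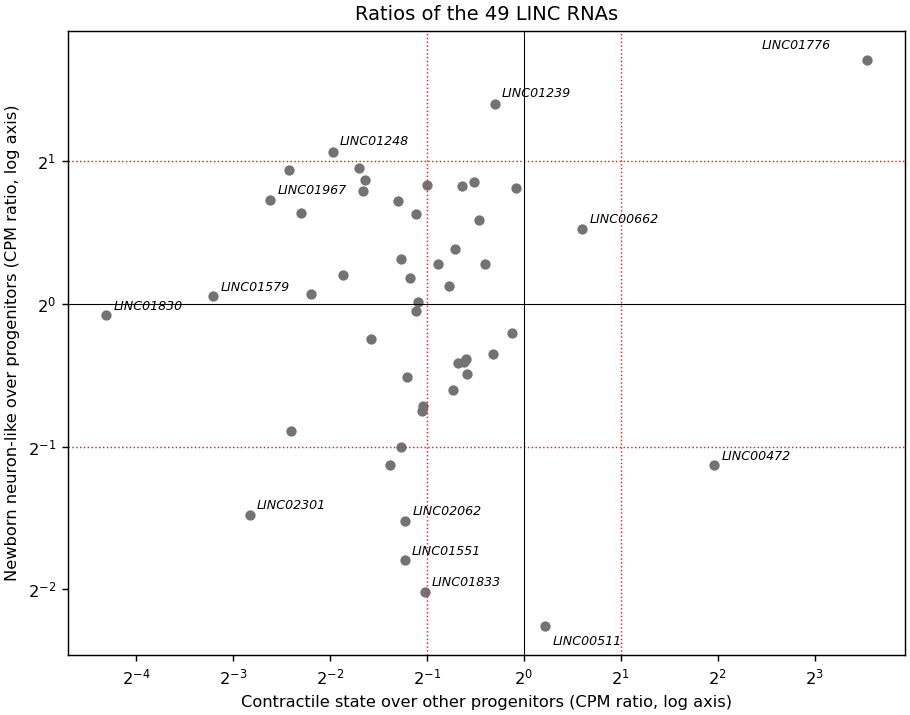
Each point is 1 of the 49 LINC RNAs, with its CPM ratio of contractile cells over other progenitors on the x axis and of newborn neuron-like cells over progenitors on the y axis (log axes), and dotted lines at 0.5 and 2. Most points lie left of 1, LINC01776 stands alone at the upper right with 11.6 and 3.28, and LINC00511 is lowest at 0.209.

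The promoter of LINC01833 (chr2:44939150-44939449, minus strand) is shown for its place beside SIX3. Capitals mark GGGCGG or its reverse CCGCCC, the GC box, and TTTGAA or its reverse TTCAAA, the cell cycle element named CHR. The GC box is in 44.9% of all windows and in 17 of the 32 member windows. CHR is in 15.2% and in 7 of the 32. Only 21 of the 32 windows lie within 500 bases of the member's GENCODE start, and that of LINC01505 is 622748 bases away. The windows further off may not be the members' promoters.
LINC01833: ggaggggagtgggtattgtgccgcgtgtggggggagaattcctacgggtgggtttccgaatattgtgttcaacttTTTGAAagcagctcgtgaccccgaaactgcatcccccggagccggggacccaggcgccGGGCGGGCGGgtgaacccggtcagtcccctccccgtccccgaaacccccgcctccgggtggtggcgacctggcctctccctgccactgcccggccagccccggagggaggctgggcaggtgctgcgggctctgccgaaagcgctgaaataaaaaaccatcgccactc

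Along the cell cycle the differences were smaller, and most members had a higher CPM in G1 than in S or G2/M. In S over G1, 1 member was 2-fold or more higher (2.04%, against 4.75% of all genes) and 1 lower (2.04%, against 0.287%). In G2/M over G1 these numbers were again 1 and 1, against 4.26% and 0.741%. With 1 gene in each direction, these counts say little about the members as a group. Of the 49, 38 had ratios below 1 in both S and G2/M, and 7 above 1 in both. The shares of all genes that did so in both were not counted. In each phase alone, 81.6% of the members were below 1, against 51.9% (S) and 43.7% (G2/M) of all genes. Of the other lncRNA genes, 73.3% and 71.9% were below 1. The member median was 0.778 in S and 0.770 in G2/M, where all genes had 0.989 and 1.04. Other lncRNA genes had 0.857 and 0.839, so this shift too was shared. In UMIs per cell, which multiplies every ratio of a phase by the same factor, 27 of the 49 were below 1 in S and 11 in G2/M. The member medians were then 0.981 and 1.25, where all genes had 1.25 and 1.67. G1 was the highest of the 5 states for 17 members and the neuron-like state for 19, of which 2 rested on fewer than 30 UMIs there. The contractile state was the lowest for 38. These are 34.7%, 38.8% and 77.6% of the members, against 16.4%, 26.3% and 40.8% of all genes and 41.3%, 24.4% and 67.2% of the other lncRNA genes.

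LINC01572 (ENSG00000261008, chr16:72236281-72665014, minus strand, 25 exonic blocks) was the only member 2-fold or more higher in G2/M than in G1. It was at 85.3 CPM in G1, 165 in S and 260 (257 to 264) in G2/M, a G2/M ratio of 3.05 (2.95 to 3.16), or 4.94 in UMIs per cell. With the progenitors split by G2/M score into 5 bins of equal cell number, it was at 90.9, 116, 147, 205 and 308 CPM, higher in each bin than in the one before. The contractile cells, which were not part of that comparison, showed the same order at 35.8, 83.8 and 116 CPM. A UMI of LINC01572 was found in 29.9% of thinned G1 cells and 60.7% of thinned G2/M cells. Its nearest coding gene, PMFBP1, lies 59.4 kb away and had a G2/M ratio of 2.32 (1.99 to 2.72) at 7.01 CPM in progenitors. AC004158.1, which overlaps LINC01572 on the other strand, had 2.33.

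The promoter of LINC01572 (chr16:72664921-72665220, minus strand) is shown because CCAAT and CHR elements are known from promoters of mitosis genes. Capitals mark both, with 1 match each. Both occur together in 5.93% of all windows, so the match is a description and not a site. They are also together in the windows of LINC01980 and LINC01473, whose G2/M ratios were 0.763 and 0.739. The LINC01473 window lies 399688 bases from the GENCODE start of that gene.
LINC01572: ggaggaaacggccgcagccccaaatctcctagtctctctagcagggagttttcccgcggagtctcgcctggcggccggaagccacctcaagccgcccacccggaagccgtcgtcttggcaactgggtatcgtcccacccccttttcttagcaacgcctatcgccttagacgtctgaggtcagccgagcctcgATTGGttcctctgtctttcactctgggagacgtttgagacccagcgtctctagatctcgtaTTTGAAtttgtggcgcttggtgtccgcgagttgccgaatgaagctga

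While LINC01572 had an S ratio of 1.94, LINC02301 was the only member 2-fold or more higher in S than in G1. It was at 12.7 CPM in G1, 31.7 (30.6 to 32.9) in S and 19.4 in G2/M, an S ratio of 2.5 (2.28 to 2.74). Over 5 such bins of the S score it climbed from 9.62 to 19.8, 21.1, 28.6 and 32.9 CPM. In contractile cells it was at 1.81, 6.05 and 2.35 CPM in G1, S and G2/M, again highest in S though on 27, 127 and 96 UMIs.

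LINC01376 (ENSG00000236204, chr2:18986451-19348067) was the only member 2-fold or more lower than in G1, in S as in G2/M. It was at 34.3 CPM in G1, 15.5 in S and 16.3 in G2/M, with ratios of 0.451 (0.419 to 0.484) and 0.474 (0.442 to 0.509). In UMIs per cell these were 0.568 and 0.767, and in cells thinned to 5000 UMIs 0.565 and 0.519, all short of 2-fold. With every cell weighing the same the S ratio was 0.517. Over the bins of the S score it was at 36.1, 19.6, 15.8, 17.4 and 12.6 CPM. In contractile cells the G1 level was 29.3 CPM, against 5.67 in S and 7.74 in G2/M. Its nearest coding gene, OSR1, lies 3.42 kb away and had only 66 UMIs.

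**Figure D4:**
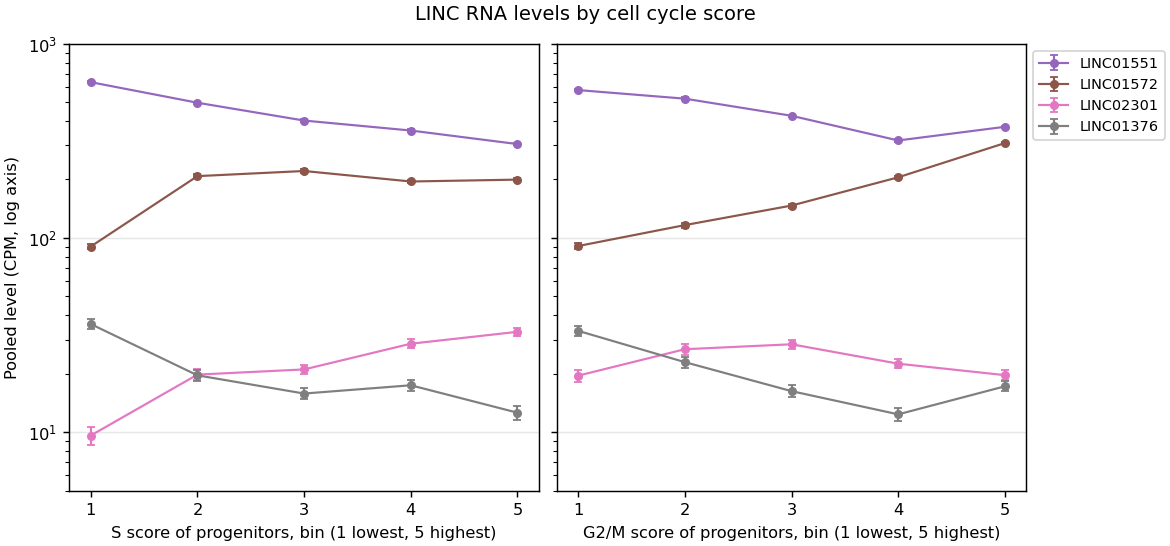
Pooled level in CPM (log axis) of 4 LINC RNAs in progenitors split into 5 bins of equal cell number by the S score (left) and the G2/M score (right), with 95% Poisson bars. LINC01572 rises to 308 CPM in the top G2/M bin, LINC02301 to 32.9 CPM in the top S bin, and LINC01376 drops from 36.1 to 12.6 CPM along the S score.

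The rule did not use position. Of the members, 48 were found in GENCODE version 44 by ID, 47 as lncRNA genes and LINC00672 as a coding gene. Of the 48, 38 keep their symbol in that version. Others no longer carry a LINC name there, such as LINC02062, now CHD1-DT, and LINC00672, now LASP1NB. The nearest other coding gene overlapped the span of 15 members, on the other strand for 13, and lay within 50 kb for 31. For 34 members the nearest coding gene held 3000 or more UMIs, and its median contractile ratio was 0.828 against 0.521 for those members. Of these, 16 were 2-fold or more lower in the contractile state, and the neighbour was so for 3 of the 16, against 5 of all 34 neighbours and 12.6% of all genes. The 3 included SOX11 and FANCL. FANCL, a DNA repair gene, lies 186 kb from LINC01122 on the other strand. Across the 34 pairs the rank correlation of the contractile ratios was 0.32, and 0.19 without LINC01776 and LINC00472. All pairs come from the same cells and depth. It was 0.26 in the neuron-like comparison, 0.02 in S and 0.10 in G2/M. A close match of contractile ratios, as for LINC01833 with SIX3 (0.493 against 0.523), was thus found for a few of the 34 pairs. The pairs lay up to 1411 kb apart and were not split by distance, so near pairs alone were not tested.

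**Figure D5:**
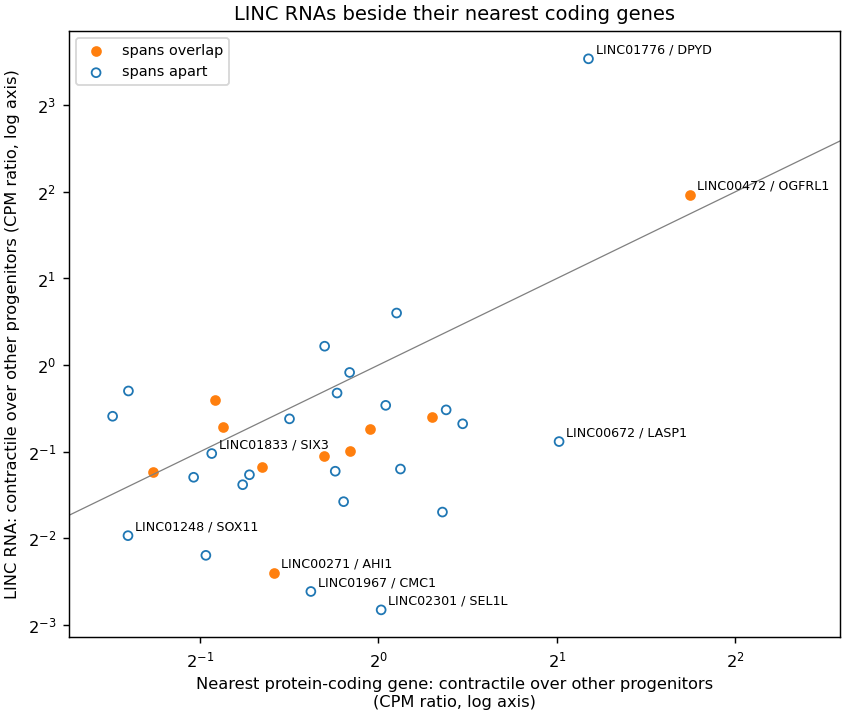
Contractile over other progenitors CPM ratio of 34 LINC RNAs (y axis) against that of their nearest protein-coding gene with 3000 or more UMIs (x axis), both log axes, with the line of equal ratios and filled points where the spans overlap. LINC00472 with OGFRL1 and LINC01833 with SIX3 lie near the line, LINC01776 lies far above it, and most points lie below it.

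In thinned cells the variance of the counts over their mean (Fano factor, 1 for pure counting noise) of the members had a median of 1.15, against 1.05 for all genes and 1.10 for other lncRNA genes. It was above 1.5 for 9 members (18.4%), 5.78% of all genes and 11.7% of other lncRNA genes. This factor grows with the level of a gene, which was not matched here. The highest were LINC01830 at 3.15, LINC01876 at 2.44 and LINC01551 at 1.95. LINC01876 was found in 62.7% of progenitors against 95.6% for LINC01551.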

How the data were processed

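The authors deposited raw counts, the UMIs of each gene in each cell barcode of 1 10x library, with no normalization. Per the submitters' processing notes they were made with Cell Ranger 7.0.1 on GRCh38, and the table was the filtered one. The study's methods give default parameters for a 3′ library, which count reads on a gene's own strand, introns included, and the latter bears on long unspliced RNAs. The annotation version is not given in the sources used here.

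Cells with 2000 to 10000 genes and under 10% mitochondrial UMIs were kept, after the study's methods. The kept cells held 314660383 UMIs, with a median of 17900 per cell. Phases were called with scanpy 1.11.5 from 43 S and 54 G2/M genes, after scaling to 10000 UMIs and taking logs. Levels are pooled CPM with exact Poisson intervals, and ratios carry exact conditional intervals. Scrublet marked 1 of 14726 barcodes, so it did not work here and no barcode was taken out as a doublet. Thinning to 5000 UMIs left out 28 kept cells. No cell state is known to lack the members, so free RNA was not measured. Calls were at 2-fold. The scripts were checked on simulated counts.

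Named genes were the 5 members with most UMIs, up to 4 highest and 4 lowest past 2-fold in each comparison, 3 on each side of the floor, the 3 highest Fano factors, and neighbours. AC096570.1, AC110023.1, AC004158.1, LINC00685, LINC01122, LINC01224, LINC01473, LINC01980 and MIR137HG were named after their values were seen. The members and gene lists were chosen with earlier results of these data known.

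Results on 1 neighbouring gene are not reported here.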

Additional observations from a re-analysis of the deposited data

How the results depend on the processing

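The alternatives changed 1 choice each, from the way levels are scaled to the gates, the phase calls, the cell filter and the fold. Of the members past 2-fold in a comparison, 13 of the 28 lower in the contractile state turned above 1 in UMIs per cell, and none turned in another comparison or setting that gave it a value. Of 90 counts of members, 62 stayed within 1.5 times their value. In UMIs per cell, 8 members were higher and 6 lower in the contractile state, 2 higher and 0 lower in S, and 4 higher and 0 lower in G2/M. The higher shares in S and G2/M were 4.08% and 8.16% of the members, against 8.19% and 21.5% of all genes. Called at 3-fold, 13 were lower in the contractile state, 1 was higher and 3 lower in the neuron-like state, 0 were higher or lower in S, and 0 were lower in G2/M. Called at 1.5-fold, 16 were higher in the neuron-like state, 3 higher and 13 lower in S, and 2 higher and 16 lower in G2/M. The shares of all genes at 3-fold and at 1.5-fold were not counted, so these counts say nothing about the members as a group. Thinned to 5000 UMIs, 6 were higher in the neuron-like state (12.2%, against 6.16% of all genes) and 0 were lower in S or G2/M. The neuron-like count of higher members was 7 without the 8% highest Scrublet scores (14.3%, against 6.23%) and 1 against G1 progenitors (2.04%, against 5.98%). A neuron gate at 2 left 3 lower (6.12%, against 8.08%). Relative to the median of all genes, an alternative added after the data were seen, 7 were higher in the neuron-like state (14.3%, against 7.06%). In that setting 5 were lower there (10.2%, against 10.9%), and 2 were lower in G2/M (4.08%, against 0.939%). With every cell weighing the same, 0 were lower in S. By the UMIs outside the contractile state, also added then, 0 were higher in that state. The causes were not tested. Those that turned include LINC01551, LINC01833, LINC01572 and LINC01122, with ratios of 1.07, 1.24, 1.22 and 1.02. In the neuron-like state, leaving out those Scrublet scores moved LINC00511 to 0.138, LINC01833 to 0.155 and LINC02062 to 0.222. Thinning moved LINC02062 to 0.191 and LINC01239 to 1.76, and the gate at 2 moved LINC00511 to 0.410, LINC01833 to 0.449, LINC01551 to 0.525 and LINC02062 to 0.502. A contractile gate at 2 moved LINC01830 to 0.078 and LINC01579 to 0.165.

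Limits: with 1 library, intervals cover counting error only and nothing is known of the spread between cultures. The 101 neuron-like cells limit most ratios there. Of 189 kept cells with under 1% mitochondrial UMIs, 87 were in the contractile state, and leaving them out changed the count of lower members from 28 to 29. Members that overlap another gene on the same strand may share reads with it. Contractile cells were deeper, and the part of free RNA was not tested.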

Other observations

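MIR137HG, the host gene of miR-137, a microRNA of neurons, is no member, and it was looked at after LINC01776 had been seen to be high in both the contractile and the neuron-like cells. Its level was 0.520 CPM in progenitors, with a ratio of 18.5 (15.3 to 22.6) in the contractile and 206 (162 to 262) in the neuron-like state. Along the contractile gate it stood at 0.391 CPM in cells with none of the gate genes and 12.4 CPM in the highest bin. EOMES, a factor of intermediate progenitors and young neurons and the coding gene nearest to LINC01980 at 74.8 kb, had 294 of its 305 UMIs in neuron-like cells. LINC01980 had a ratio of 1.82 (1.57 to 2.10) there.

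Among progenitors, 102 cells had under 1% mitochondrial UMIs, of which 76 were called G2/M, 23 S and 3 G1. They were shallower, with a median of 9444 UMIs against 17026.5 in the other progenitors. Phase, depth and mitochondrial share cannot be told apart here. Some members rested on few UMIs, such as LINC01776 on 1 and LINC00472 on 2. The members had a median ratio of 0.428 in these cells over the other progenitors, with 3 of 49 above 1 (6.12%). Other lncRNA genes had a median of 0.464 with 16.9% above 1, and all genes one of 0.804 with 36.7% above 1.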
